A study of Mus musculus with 8 samples.

Results

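The BCL2 family decides, at the outer membrane of the mitochondria, whether a cell lives or enters apoptosis. Its survival proteins bind and hold back the death-promoting members. The BH3-only proteins sense stress and neutralise the survival proteins or activate BAX and BAK, which open the membrane and release cytochrome c to the caspases. Blood cells and leukemic blasts depend on this balance, and MCL1 and BCL2 are well known drug targets in AML. GFI1, the factor altered in the mice studied here, is a transcriptional repressor that recruits histone deacetylases, and acetylation of lysine 9 of histone H3 (H3K9ac) marks the promoters of active genes. The question addressed was which of these genes carry the mark in bone marrow (BM) cells and how it differed with curcumin.

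The 10 genes described were chosen by name, 3 that promote survival (*Mcl1*, *Bcl2* and *Bcl2l1*) and 7 that promote death (*Bcl2l11*, *Bax*, *Bak1*, *Bbc3*, *Pmaip1*, *Bid* and *Bad*), among 21938 protein-coding genes. H3K9ac was profiled by ChIP-seq in BM of C57BL/6 mice that all carried the *NUP98-HOXD13* transgene, a fusion gene that causes a disease like MDS and can progress to AML. The mice expressed *GFI1-36S*, *GFI1-36N*, the variant form of GFI1, or a reduced level of GFI1 (*GFI1-KD*), and received curcumin by weekly i.p. injection of 20 mg/kg or no curcumin, which the study's methods give as DMSO and which is called vehicle here. Each of the 6 combinations had 1 library, so differences could not be set against a spread between mice, and no test across mice was made. The labels give whole BM cells and the study's methods frozen BM cells, while the title of a figure legend names c-kit+ cells, so it is not settled whether the cells were selected. The ages of the mice and the number behind a library were not given in the sources used here, and the mice were examined when leukaemia was overt or their health declined. The names of the *GFI1-36N* lists mark the vehicle mice as heterozygous and the curcumin mice as homozygous for the knock-in allele, which the labels do not state. The names of both *GFI1-36S* lists carry the opposite treatment to their labels, and the labels were followed; with the names followed instead, each difference in *GFI1-36S* mice has the opposite sign.

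The lists held 20354 to 49213 peaks, and 9726 to 11801 genes had a peak within 1000 bp of a transcription start site (TSS). The curcumin library of *GFI1-36S* stood apart. It had the fewest peaks and a median promoter peak of 1064 bp against 1541 to 1963 bp in the others, and it alone held peaks on the Y chromosome, 3 in number. All 14 T-cell marker genes had a promoter peak in it, against 4 to 8 in the other libraries, while 0 of 18 neutrophil markers, 2 of 10 erythroid markers and 2 of 10 stem and progenitor markers did. The other libraries had promoter peaks at 9 to 17 neutrophil and 5 to 10 erythroid markers. At most 3 of 9 B-cell markers had one in any library. Values of the *GFI1-36S* pair are therefore given as values of these libraries, and the part of cell composition in them was not tested. In bulk BM, more cells with the mark and more mark per cell cannot be told apart.

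The strength of a promoter was the fold enrichment of its strongest peak over the local background, as the authors' peak caller gave it. Since enrichments are not comparable between lists, the promoters of each library were ranked by it from 0, assigned where no peak was listed, to 100. The number of fragments at each summit was recovered from the enrichment and its −log10 p, and a 95% Poisson interval of this number gave a counting interval of the rank. The interval covers counting error only and spanned 16.7 to 29.8 points for the median promoter, with 72 to 164 fragments at the median summit.

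Promoter sequences of 9 of the 10 genes were found in RefSeq (GRCm38.p6, the assembly of mm10). The 250 bases before the start are shown for *Mcl1*, whose promoter was the strongest of the 10 in each library, for *Bcl2* and *Bcl2l1*, whose ranks differed most with curcumin among the survival genes, and for *Bbc3*, which like *Bcl2* was ranked lower with curcumin in *GFI1-36N* mice. Capitals mark AATC, the core of the GFI1 binding motif, and GGGCGG, the GC box bound by SP1, each on either strand and with overlapping matches counted separately.
Mcl1, chr3:95658471-95658720, plus strand: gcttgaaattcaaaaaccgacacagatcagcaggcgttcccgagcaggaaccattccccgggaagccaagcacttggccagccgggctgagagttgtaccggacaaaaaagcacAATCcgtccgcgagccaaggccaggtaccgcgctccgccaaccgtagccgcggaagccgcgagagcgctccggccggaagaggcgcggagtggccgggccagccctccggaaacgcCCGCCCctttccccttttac
Bcl2, chr1:106714291-106714540, minus strand: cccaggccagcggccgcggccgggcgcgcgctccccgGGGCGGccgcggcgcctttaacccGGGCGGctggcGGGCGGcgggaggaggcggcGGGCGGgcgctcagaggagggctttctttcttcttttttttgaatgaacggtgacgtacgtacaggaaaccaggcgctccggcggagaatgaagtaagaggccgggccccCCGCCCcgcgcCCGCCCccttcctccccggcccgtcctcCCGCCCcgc
Bcl2l1, chr2:152831729-152831978, minus strand: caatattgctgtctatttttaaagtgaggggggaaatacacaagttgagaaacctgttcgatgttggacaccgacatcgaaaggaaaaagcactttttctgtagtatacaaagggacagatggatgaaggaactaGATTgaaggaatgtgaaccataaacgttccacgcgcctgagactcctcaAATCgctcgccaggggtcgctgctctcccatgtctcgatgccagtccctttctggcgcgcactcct
Bbc3, chr7:16309333-16309582, plus strand: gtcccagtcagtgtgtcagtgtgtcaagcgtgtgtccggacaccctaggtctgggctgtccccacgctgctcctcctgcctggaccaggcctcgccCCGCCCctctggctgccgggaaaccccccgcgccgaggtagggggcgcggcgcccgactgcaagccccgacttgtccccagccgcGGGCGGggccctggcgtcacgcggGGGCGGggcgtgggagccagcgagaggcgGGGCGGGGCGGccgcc
The windows shown for *Bcl2* and *Bbc3* were rich in G and C, at 74.8% and 76.4%, with 7 and 5 GC boxes and 0 AATC. Those of *Bcl2l11*, not called in *GFI1-36N* mice, had 72% and 73.2% with 3 and 2 GC boxes. The *Bcl2l1* window shown had 47.6% G and C, no GC box and 2 AATC, and that of *Mcl1* had 64.4% with 1 match to each. *Bbc3* and *Bcl2l1* have further RefSeq starts not shown, those of *Bbc3* with 1 and 7 GC boxes. Over 21262 promoter windows of the same length from 17491 genes, the median content was 55.6%, GGGCGG was present in 42.6% and AATC in 67.1%. A match of these letters is a description and not a binding site.

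*Mcl1*, the short-lived survival protein that blood stem cells and many leukaemias require, had one of the strongest and widest promoter peaks of every library. It lies at chr3:95658788-95663176 on the plus strand. Vehicle and curcumin libraries ranked it at 99.0 and 97.0 in *GFI1-36S*, at 99.1 and 98.4 in *-36N*, and at 97.6 and 99.6 in *-KD* mice. Counting intervals overlapped within each pair, and the whole spread of 2.57 points over 6 libraries was the smallest among the 10 genes. The summit held 242, 146, 266, 239, 312 and 261 fragments in the same order. The peak spanned 5799 and 3105 bp in *GFI1-36S*, 6618 and 4227 bp in *-36N*, and 7370 and 5641 bp in *-KD* mice, vehicle first. It covered 100% of the gene in the 3 vehicle libraries and in *GFI1-KD* mice with curcumin, against 52.9% in the curcumin library of *GFI1-36S*. With curcumin the peak was narrower in each genotype, at ratios of 0.54, 0.64 and 0.77. So were 8986 of 9495 promoter peaks present in both libraries in *GFI1-36S* and 9666 of 10965 in *-KD* mice, with median ratios of 0.60 and 0.82, against 4311 of 11112 in *-36N* mice, with a median ratio of 1.04. In *GFI1-36N* mice the narrower peak had a second, weaker one of 1384 bp beside it inside the gene.

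*Bcl2*, the founding survival gene, had promoter ranks between 31.2 and 70.6. It is a long gene at chr1:106538178-106714274 on the minus strand. Ranks in the vehicle and curcumin libraries were 48.4 and 62.0 for *GFI1-36S*, 60.4 and 31.2 for *-36N*, and 70.6 and 63.6 for *-KD*. In *GFI1-36N* mice the curcumin library was 29.3 points lower, with a counting interval of 25.4 to 40.0 that lay apart from the 46.7 to 75.0 of the vehicle library. The fold enrichment there was 19.8 with vehicle and 15.4 with curcumin, a ratio of 0.77, while the median promoter of the curcumin library was the stronger one at 21.1 against 17.5. The summits held nearly equal numbers of fragments, 137 with vehicle and 131 with curcumin. The local background that the enrichment is divided by was 7.60 fragments at the curcumin summit, above the 4.78 of that library's genome background, and was at the genome background in the other 5 libraries. The counting interval does not cover error in this background, and ranking by −log10 p gave a change of -15.2 points. Counting intervals overlapped in the other pairs. The summit lay 121, 158 and 156 bp downstream of the upstream end of the gene in the vehicle libraries of *GFI1-36S*, *-36N* and *-KD*, and at -337, -360 and -333 bp, upstream of it, in the curcumin libraries. By the labels, the vehicle summits thus lay on the other side of this position from the curcumin summits in each genotype. With the list names followed, the order in *GFI1-36S* mice is the opposite. Summits of other genes also differed within pairs, and how common such a shift is among all promoters was not determined. Over the 6 libraries, the nearest ranks to those of *Bcl2* were those of *Rundc1*, *Ptges3l* and *Gm27029*. These 3 genes had the same mean difference of 5.13 points and the same lowest and highest rank, 33.9 and 67.4. They cannot be taken as 3 separate matches, and whether they share a peak was not determined.

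*Bcl2l1*, which encodes the survival protein BCL-XL that erythroid cells and platelets rely on, was the survival gene with the largest differences. It lies at chr2:152780668-152831728 on the minus strand. Its promoter stood at rank 65.5 under vehicle and 22.2 under curcumin in *GFI1-36S* mice, at 55.7 and 62.2 in *-36N* mice, and at 94.5 and 61.9 in *-KD* mice. The vehicle library of *GFI1-KD* was the highest of the 6. In *GFI1-KD* mice the curcumin library was 32.6 points lower and the counting intervals, 87.9 to 98.4 and 48.4 to 75.5, lay apart. The fold enrichment there was 39.4 with vehicle and 22.2 with curcumin, from 287 and 145 fragments. The peak extended over chr2:152829562-152831753 with vehicle and chr2:152830431-152831699 with curcumin, 2192 and 1269 bp. Intervals were also apart in *GFI1-36S* mice, where the curcumin library was 43.3 points lower, and they overlapped in *GFI1-36N* mice. Beyond the promoter, 13 further peaks lay inside the gene in the *GFI1-KD* vehicle library and 1 with curcumin. Peaks covered 13385 bp of the gene with vehicle and 1971 bp with curcumin, a ratio of 0.147, while the median gene with a promoter peak in both libraries had a ratio of 0.793. In the same pair, 17 of 18 neutrophil and 10 of 10 erythroid markers had a promoter peak with vehicle and 9 and 5 with curcumin, and the part of this in the *Bcl2l1* values was not tested. In *GFI1-36N* mice, 13 of 18 neutrophil markers had a peak in each library. Of 10 erythroid markers, 8 had one with vehicle and 5 with curcumin. Where either library had a peak, the median rank change was 6.22 points for neutrophil and 3.64 points for erythroid markers. There 10 neutrophil markers were higher and 3 lower, and 5 and 4 erythroid markers. In *GFI1-KD* mice the medians were -16.4 and -14.7 points. *Bcl2l1* was 6.48 points higher with curcumin in *GFI1-36N* mice, and the part of cell composition in this was not tested. The nearest ranks were those of *Eps15*, *Atf6b* and *Lpcat4*, with mean differences of 5.15, 5.55 and 6.09 points.

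**Figure D1:**
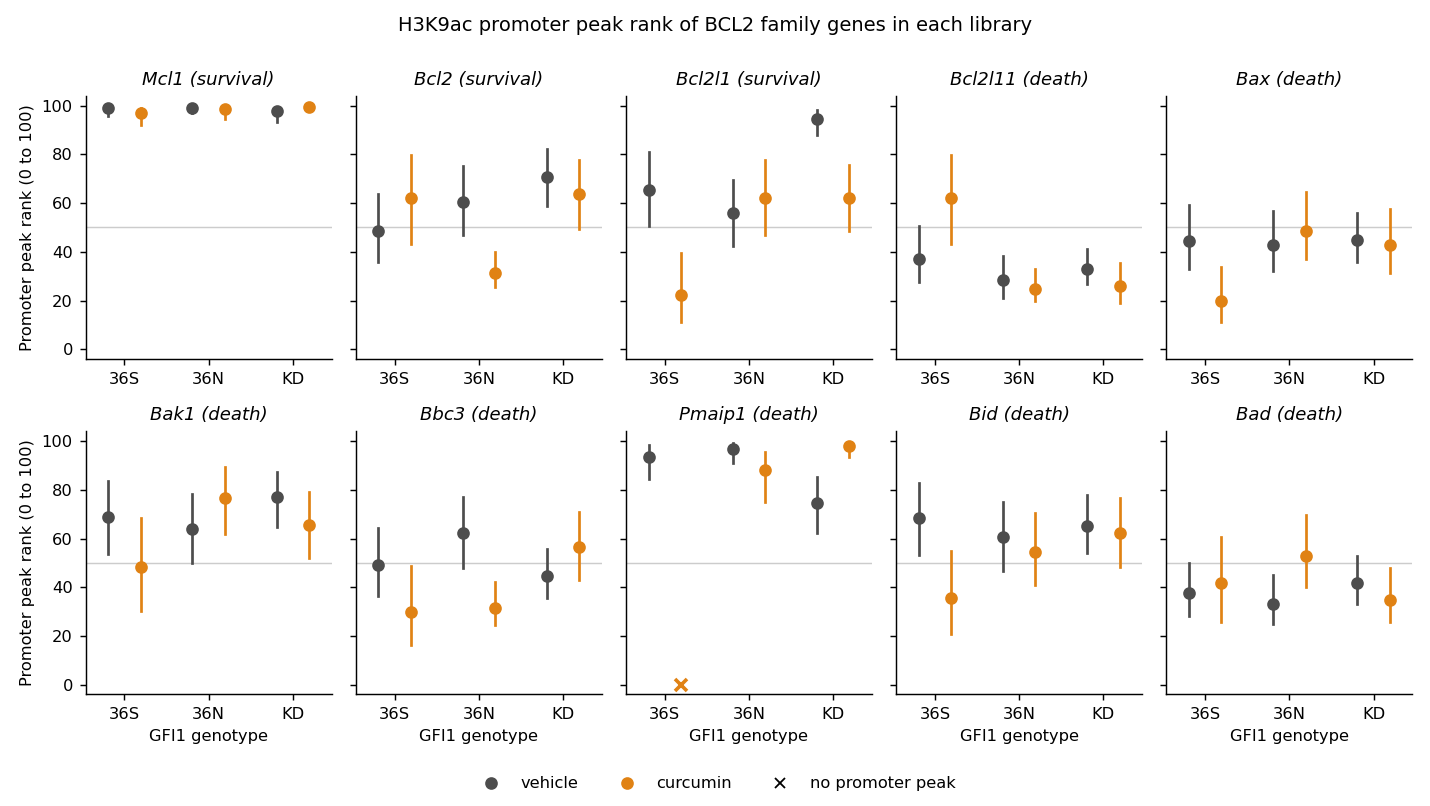
Promoter peak rank (0 to 100, vertical axis) of the 10 genes in the vehicle (grey) and curcumin (orange) library of each GFI1 genotype; points are single libraries, lines are 95% counting intervals, a cross is a library with no promoter peak and the horizontal line is rank 50. *Mcl1* stayed between 97.0 and 99.6, *Bcl2l1* was highest in the *GFI1-KD* vehicle library at 94.5, and *Pmaip1* had no peak in the *GFI1-36S* curcumin library.

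The effectors *Bax* and *Bak1* encode the pores themselves. *Bax*, at chr7:45461697-45466898 on the minus strand, had ranks of 44.4 and 20.0 in the vehicle and curcumin libraries of *GFI1-36S*, 42.8 and 48.6 of *-36N*, and 44.7 and 42.8 of *-KD*. Its vehicle values differed by less than 2 points between genotypes. *Bak1*, at chr17:27019810-27029009 on the minus strand, was ranked higher, at 68.9 and 48.5, 63.9 and 76.6, and 76.9 and 65.5 in the same order. It was 12.7 points higher with curcumin in *GFI1-36N* and 11.4 points lower in *GFI1-KD* mice, where ranking by −log10 p gave -7.27 points, short of 10. All counting intervals of both genes overlapped within a pair.

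Of the BH3-only genes, *Pmaip1*, which encodes NOXA, the p53-induced partner of MCL1, had the strongest promoter in 5 libraries. It lies at chr18:66458533-66465565 on the plus strand. The vehicle library of *GFI1-36S* placed it at rank 93.4. Vehicle and curcumin values were 96.7 and 87.9 for *GFI1-36N*, and 74.4 and 97.9 for *-KD*. In *GFI1-KD* mice the curcumin library was 23.5 points higher and the counting intervals, 62.4 to 85.2 and 93.5 to 99.6, lay apart, from 214 and 232 fragments. Fold enrichment was 29.4 and 38.6 there, while the width hardly differed at 2511 and 2504 bp. In the curcumin library of *GFI1-36S* no peak was listed at the promoter, and the nearest one lay 455906 bp away. A list holds only what passed the authors' threshold, so an absent peak does not mean an absent mark.

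*Bbc3* encodes PUMA, the other BH3-only protein that p53 induces, and lies at chr7:16308393-16318205 on the plus strand. Promoter ranks under vehicle and curcumin were 49.2 and 29.7 for *GFI1-36S*, 62.2 and 31.4 for *-36N*, and 44.7 and 56.7 for *-KD*. In *GFI1-36N* mice it was 30.7 points lower with curcumin and the counting intervals, 48.1 to 77.1 and 24.3 to 42.3, lay apart, from 140 and 88 fragments. A separate peak inside the gene was stronger than the promoter peak in 5 of the 6 libraries. In *GFI1-36N* mice it spanned chr7:16311217-16314725 with vehicle and chr7:16311365-16314758 with curcumin, with fold enrichments of 24.1 and 30.5. Of the promoter peaks of those libraries, 77.9% and 83.6% were at or below these values. In *GFI1-KD* mice its enrichment was 40.2 with vehicle and 30.0 with curcumin, with 95.5% and 86.7% of promoter peaks at or below. The promoter peak and the peak inside the gene thus differed in opposite directions with curcumin in both genotypes, without a counting interval for the latter. Which of them stood for the gene set the direction: with a window of 3 kb the change was 5.61 points in *GFI1-36N* and -8.87 points in *GFI1-KD* mice.

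**Figure D2:**
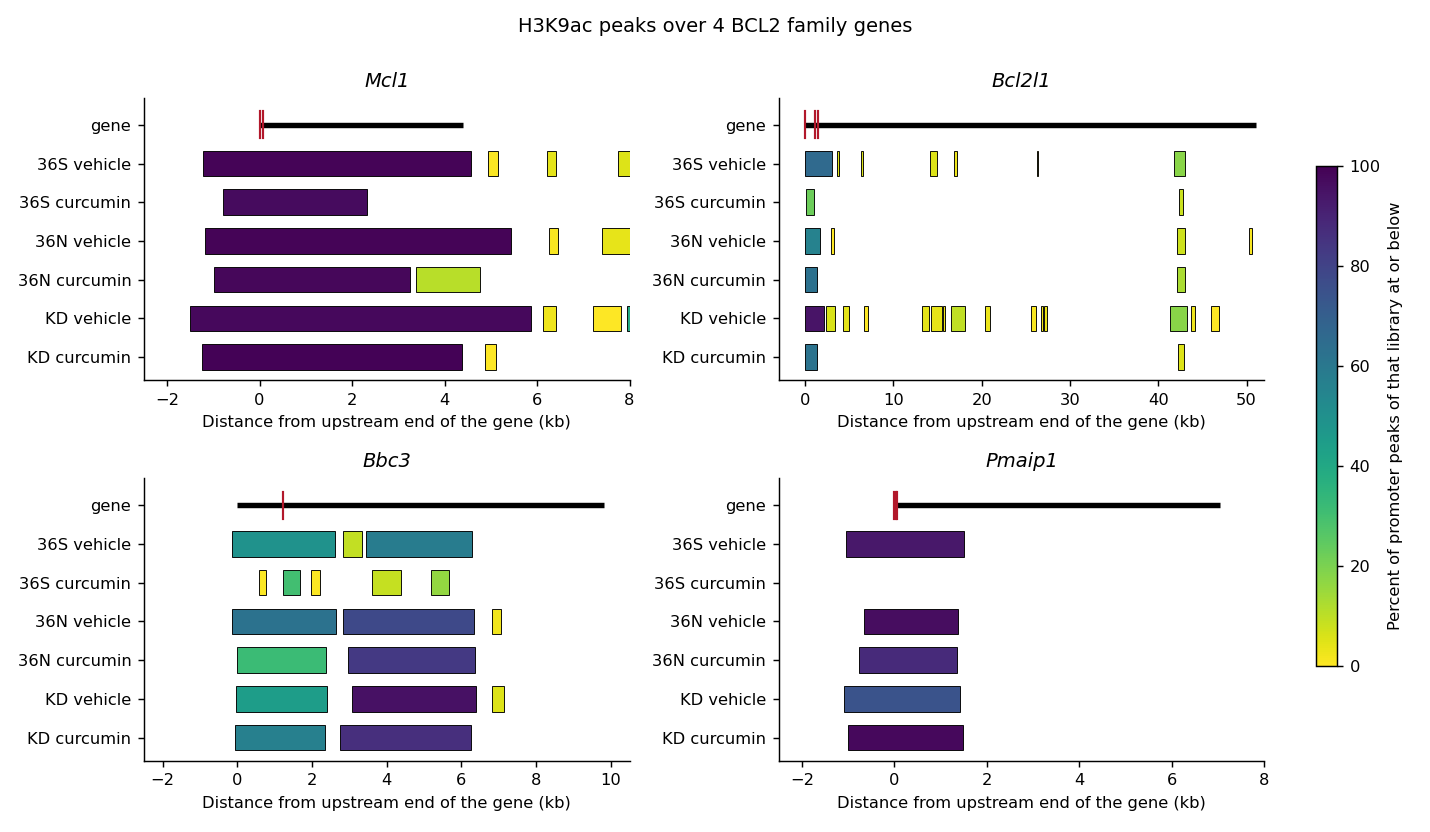
Peaks over *Mcl1*, *Bcl2l1*, *Bbc3* and *Pmaip1* in each library (rows) by distance in kb from the upstream end of the gene; the black bar is the gene, red ticks are its start sites in the basic annotation, and the colour of a box is the percentage of that library's promoter peaks at or below it in fold enrichment. The *GFI1-KD* vehicle library has 13 further peaks inside *Bcl2l1* against 1 with curcumin, and a second peak of *Bbc3* lies downstream of the promoter.

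*Bcl2l11* encodes BIM, an activator of BAX that limits the number of lymphoid and myeloid cells, and lies at chr2:128126038-128162547 on the plus strand. It was the lowest ranked of the 10 promoters in 5 libraries, with vehicle and curcumin values of 37.2 and 62.0 for *GFI1-36S*, 28.5 and 24.9 for *-36N*, and 32.8 and 25.9 for *-KD*. *Bid*, cleaved by caspase-8 to carry the death receptor signal to the mitochondria, lies at chr6:120891930-120916853 on the minus strand and was ranked 68.3 and 35.4, 60.4 and 54.4, and 65.1 and 62.3. *Bad*, held inactive by growth factor signals through phosphorylation, lies at chr19:6941861-6951899 on the plus strand and was ranked 37.5 and 41.9, 33.1 and 53.0, and 41.9 and 35.0. *Bad* was 19.9 points higher with curcumin in *GFI1-36N* mice, where its peak spanned 1551 bp with vehicle and 2551 bp with curcumin. With all annotated TSSs the change was 9.29 points there and 21.9 points in *GFI1-KD* mice, where it was otherwise -6.92. All counting intervals of these 3 genes overlapped within a pair. The *Bad* peak also held a TSS of the neighbouring *Gpr137* in 5 libraries and the *Bid* peak one of *Gm44260* in 5, so their values cannot be assigned to a single gene.

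With curcumin, all 10 genes kept a promoter peak in *GFI1-36N* and *-KD* mice and 9 in *GFI1-36S*. Of all promoters with a peak in either library, 1.84%, 6.73% and 16.2% were marked in the vehicle library alone, respectively. A difference of at least 10 points was taken as a call. In *GFI1-36N* mice, *Bak1* and *Bad* were called higher, beside 19.3% of all promoters, and *Bcl2* and *Bbc3* lower, beside 11.3%. In *GFI1-KD* mice, *Bbc3* and *Pmaip1* were called higher, beside 9.47%, and *Bcl2l1* and *Bak1* lower, beside 20.6%. In *GFI1-36S* mice, 2 genes (*Bcl2* and *Bcl2l11*) were called higher and 6 lower, beside 15.0% and 41.4%. Counts of 2 in 10 were close to these percentages for higher calls in *GFI1-36N* and lower calls in *GFI1-KD* mice.

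Fewer genes had counting intervals apart. Those were *Bcl2* and *Bbc3*, both lower, in *GFI1-36N* mice, beside 2.25% of promoters. The summit of *Bbc3* held fewer fragments with curcumin, whereas that of *Bcl2* held nearly as many over a higher local background. In *GFI1-KD* mice they were *Bcl2l1*, lower beside 6.69% of promoters, and *Pmaip1*, higher beside 2.16%. In *GFI1-36S* mice *Bcl2l1* was lower beside 13.4%, and 0 genes were apart and higher beside 5.30%. The difference between genotypes was not tested.

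**Figure D3:**
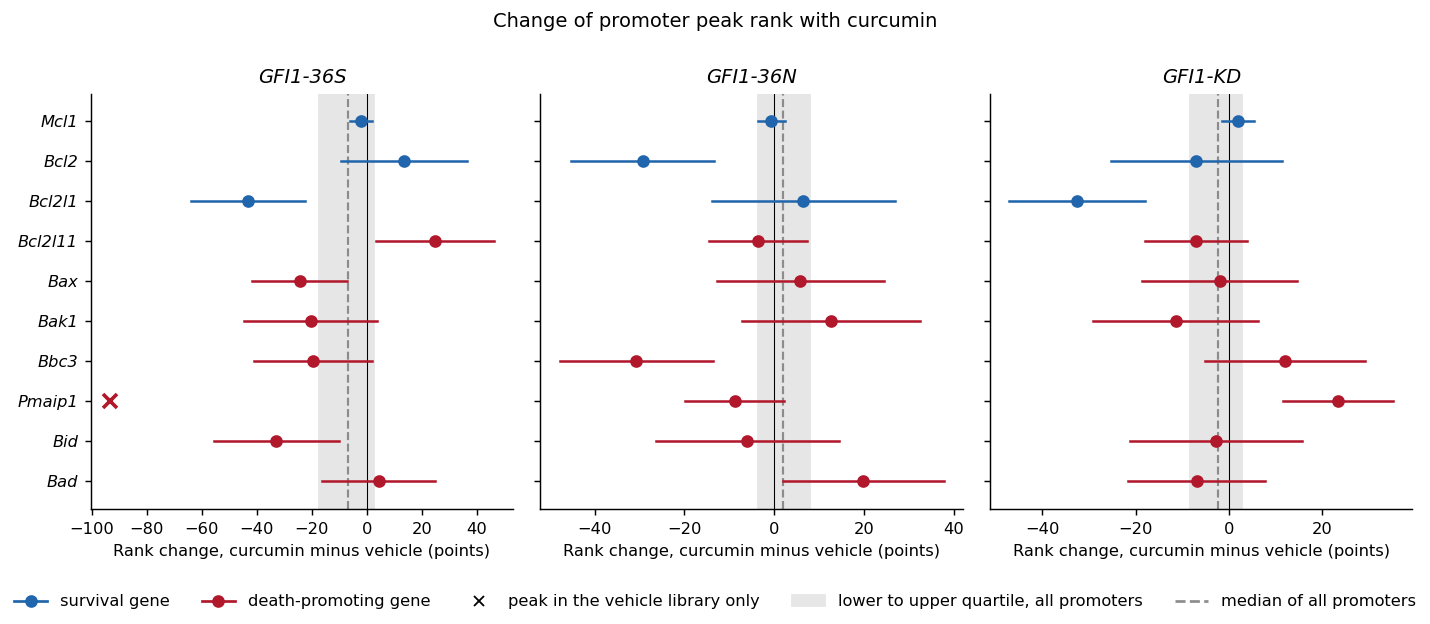
Rank with curcumin minus rank with vehicle (points, horizontal axis) for each gene and GFI1 genotype; lines are the counting errors of both libraries combined, blue marks survival and red death-promoting genes, the grey band runs from the lower to the upper quartile of all promoters with the dashed line at their median, and the cross is a peak present with vehicle alone. *Bcl2* and *Bbc3* lie farthest to the left in *GFI1-36N* and *Bcl2l1* in *GFI1-KD* mice.

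The changes of the survival genes and of the death-promoting genes overlapped in range in each genotype. The median change of the 3 survival genes was -0.66 points in *GFI1-36N* and -7.03 points in *GFI1-KD* mice, with ranges of -29.3 to 6.48 and -32.6 to 1.96. That of the 7 death-promoting genes was -3.59 and -2.78 points, with ranges of -30.7 to 19.9 and -11.4 to 23.5. Over all promoters the median change was 1.89 and -2.34 points. The survival median minus the death-promoting median was 2.93 points in *GFI1-36N* and -4.25 points in *GFI1-KD* mice. With a window of 3 kb it was -6.23 and -0.01 points. With all annotated TSSs it was -6.21 points in *GFI1-36N* mice, so its direction there depended on the processing. For *GFI1-36S* the same difference was 18.4 points, with medians of -2.02 and -20.4 beside -6.61 over all promoters.

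Widths showed a library-wide difference in *GFI1-36S* mice, where all 9 genes with both peaks had a peak at least 1.5 times narrower with curcumin, beside 60.4% of promoters. In *GFI1-KD* mice all 10 peaks were narrower with curcumin, with a median ratio of 0.92, beside the 9666 of 10965 promoters and median ratio of 0.82 given above. *Bcl2l1* alone was narrower by 1.5 times or more, beside 27.0%. In *GFI1-36N* mice *Mcl1* was narrower by that factor, beside 6.17%, and *Bax* and *Bad* were wider, beside 9.42%. *Mcl1* kept a width rank of 96.1 to 99.5 in every library.

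**Figure D4:**
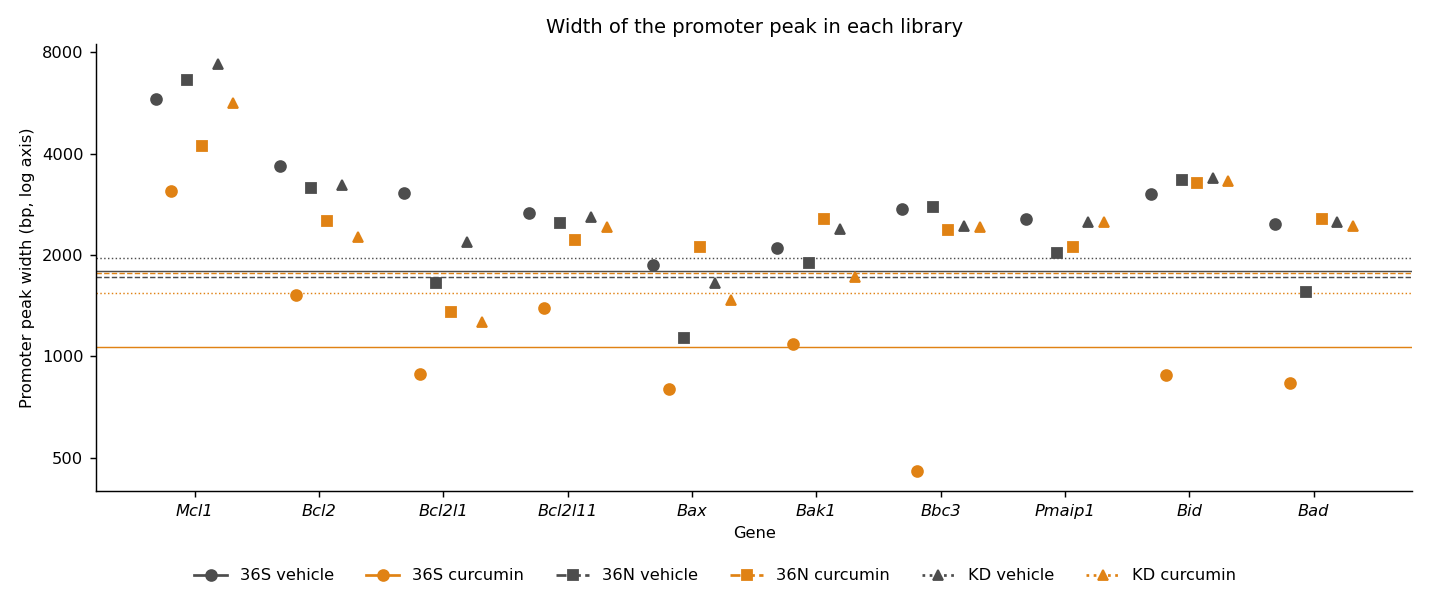
Width of the promoter peak in bp (log axis) for each gene and library; circles, squares and triangles are *GFI1-36S*, *-36N* and *-KD*, grey is vehicle and orange curcumin, and horizontal lines are the median widths over all promoter peaks of each library. *Mcl1* has the widest peak in each library and the *GFI1-36S* curcumin points are lowest for 9 genes.

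Between the vehicle libraries, the largest differences of the 10 genes were those of *Bcl2l1* in *GFI1-KD* mice. Its rank there was 29.0 points above *GFI1-36S* and 38.8 points above *GFI1-36N*, with counting intervals apart in both comparisons, which share the *GFI1-KD* library with each other and with the curcumin comparison. Intervals were apart and higher at 5.89% and 5.59% of promoters. *Bcl2* was 22.2 points above *GFI1-36S* with overlapping intervals. *Pmaip1* was 18.9 points lower in *GFI1-KD* than in *GFI1-36S* and 22.3 points lower than in *GFI1-36N* mice, with intervals apart in the latter. Intervals were apart and lower at 2.08% and 4.42% of promoters. At 10 points, 2 genes were higher and 1 lower against *GFI1-36S*, beside 16.4% and 9.97% of promoters, and 3 were higher and 2 lower against *GFI1-36N*, beside 18.6% and 10.7%. In *GFI1-36N* against *GFI1-36S*, *Bcl2* and *Bbc3* were 12.1 and 13.0 points higher, beside 15.3% of promoters, and 0 genes were lower, beside 17.5%.

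Of 15 other BCL2 family genes, 10 had a promoter peak in at least 1 library, beside 12557 of 21938 protein-coding genes. Their median rank change was 2.12 points in *GFI1-36N* and 0.37 points in *GFI1-KD* mice, beside 1.89 and -2.34 points over all promoters. In each genotype 2 of 9 were called higher, beside 19.3% and 9.47% of promoters, and 1 of 9 lower, beside 11.3% and 20.6%. The weakest peaks of these family genes were listed in 1 library of a pair. *Bik* had a peak with curcumin (rank 12.4) but not with vehicle in *GFI1-36N* mice and with vehicle alone in *GFI1-KD* (0.0850). *Bok* had one with curcumin alone in *GFI1-36N* (2.12) and *Bcl2l15* with vehicle alone in *GFI1-KD* mice (1.60). All 14 genes of the apoptosome and caspases were marked in every library, with median changes of 4.75 and -1.93 points, and with 3 and 2 of 14 called higher, beside 19.3% and 9.47% of promoters, and 1 and 2 lower, beside 11.3% and 20.6%. The 6 caspase inhibitors had median changes of -4.51 and -2.93 points, and 1 and 0 of them were called lower, beside 11.3% and 20.6% of promoters. Their values were below 0 for 6 of 6 in *GFI1-36N* and 5 of 6 in *GFI1-KD* mice, as were those of 4795 of 12022 and 7495 of 11908 promoters. The 8 death receptor genes had median changes of 1.84 and -1.37 points. Of them, 2 and 0 were called higher, beside 19.3% and 9.47% of promoters, and 1 and 1 lower, beside 11.3% and 20.6%. *Ripk1*, the kinase that links these receptors to survival or death, went from 84.0 to 67.3 in *-36N* and from 91.7 to 80.5 in *-KD* mice. The receptor gene *Tnfrsf10b* had a peak with curcumin alone in *GFI1-36N* (0.983) and with vehicle alone in *GFI1-KD* mice (8.18). The 7 mitochondrial channel and partner genes had median changes of 8.41 and 7.74 points, beside 1.89 and -2.34 points over all promoters. In each genotype 3 of the 7 genes were called higher, beside 19.3% and 9.47%, and 0 lower, beside 11.3% and 20.6%. Among them *Vdac2*, the outer membrane channel that holds BAK, went from rank 82.8 under vehicle to 93.6 under curcumin in *-36N* and from 51.4 to 61.4 in *-KD* mice.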

How the data were processed

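The 6 deposited peak lists of H3K9ac were used. Per the study's methods, adapters were trimmed with Trim Galore, BWA-MEM served for mapping to mm10, and MACS2 peaks outside ENCODE black list regions were kept for each library. The control, threshold and treatment of duplicates are not given in the sources used here. For each peak, the lists deposited by the authors give a fold enrichment, which is a ratio to local background, a −log10 p, a −log10 q and an integer score. An input and an IgG sample were not analysed here.

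TSSs came from the basic set of GENCODE M21 on the same assembly. Protein-coding genes were given the peaks overlapping by at least 1 bp a window of ±1000 bp around each of their TSSs, and the strongest by fold enrichment was ranked within its library. Calls were 10 rank points, or 1.5 times for widths. Summit fragments were solved from fold enrichment and −log10 p to a tolerance of 0.002, which succeeded for 99.5% to 100.0% of promoter peaks per library, and the steps were tested on simulated data. Python 3.11.15, pandas 2.3.3 and scipy 1.17.1 were used. Alternatives are given in the closing section. The genes and lists were chosen with earlier results of these data known. The genes named were the 10 members, genes of the lists that differed by 10 points in the same direction in *GFI1-36N* and *-KD* or had a peak in 1 library of either pair, genes sharing a member peak, and the 3 most similar genes for each survival gene, which for *Mcl1* are not reported here.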

Additional observations from a re-analysis of the deposited data

Results flagged for a closer look

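Some genes differed by at least 10 rank points with curcumin in opposite directions in different genotypes, each with 1 library per group, and the difference between genotypes was not tested. *Bak1* was changed by 12.7 points in *GFI1-36N*, -11.4 points in *GFI1-KD* and -20.4 points in *GFI1-36S* mice, and the *GFI1-KD* value was -7.27 points when ranked by −log10 p. *Bbc3* was changed by -30.7 points in *GFI1-36N* and 11.97 points in *GFI1-KD*, beside -19.5 points in *GFI1-36S* mice. In *GFI1-36N* and *-KD* mice the peak inside *Bbc3* differed in the opposite direction to its promoter peak. *Bcl2* was changed by 13.6 points in *GFI1-36S* and -29.3 points in *GFI1-36N* mice. The latter came with 137 and 131 fragments at the summits and a local background of 7.60 with curcumin against 4.78 over the genome, and was -15.2 points when ranked by −log10 p. *Pmaip1* was changed by -93.4 points in *GFI1-36S* mice, where no peak was listed with curcumin, and by 23.5 points in *GFI1-KD* mice.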

How the results depend on the processing

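Exchanging the treatments of the *GFI1-36S* libraries, as the names of their lists have it, gave 6 genes higher and 2 lower and a survival minus death-promoting difference of -18.4 points, with changes of -13.6 for *Bcl2*, 43.3 for *Bcl2l1*, -24.8 for *Bcl2l11*, 24.4 for *Bax*, 20.4 for *Bak1*, 19.5 for *Bbc3*, 93.4 for *Pmaip1* and 32.8 for *Bid*. A window of 3 kb took in the peak inside *Bbc3*, whose change became 5.61 points in *GFI1-36N* and -8.87 points in *GFI1-KD* mice, leaving 1 gene lower in the former and 1 higher in the latter. Using all annotated TSSs, chosen after seeing the data, gave 5.57 and -8.87 points for *Bbc3* and 1 gene higher and 1 lower in *GFI1-36N* mice, where *Bad* fell short of 10 points at 9.29. Ranking by −log10 p left 1 gene lower in *GFI1-KD* mice, *Bak1* being at -7.27 points. With a relative fold enrichment of 1.5 as the call, 0 genes were higher in each genotype, and 1 was lower in *GFI1-36S* and 1 in *GFI1-KD* mice. Over 9 alternatives other than the exchange, *Bcl2l1* in *GFI1-KD* stayed between -34.0 and -29.6 points, *Pmaip1* in *GFI1-KD* between 23.3 and 25.3 and *Bcl2* in *GFI1-36N* between -33.0 and -15.2. Of the counts and differences recomputed, 99 stayed within 1.5 times or the counting error, 12 moved and 1 reversed, with the *GFI1-36S* exchange. For single genes the numbers were 266, 1 and 12, the 1 being *Bad* in *GFI1-KD* mice at 21.9 points with all annotated TSSs. A reversal was counted only for values of at least 10 points. The 99 therefore include the survival minus death-promoting difference in *GFI1-36N* mice, which went from 2.93 to -6.23 points with a window of 3 kb. *Pmaip1* in *GFI1-36S* mice had no value where both libraries needed a peak. No paired analysis was possible because each group had 1 library. Depth, recovered only at summits, limited single ranks to the counting intervals given.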
